A study of Mus musculus with 36 samples.

Results

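The responses of mouse embryonic stem cells (mES cells) to the loss of ZCCHC8 and to the loss of METTL3 were set against each other gene by gene, from the read counts of the ZCCHC8 and METTL3 degron lines. All libraries that the labels assign to these lines entered, which gave 24 of the 36 libraries of the SLAM-seq series. The cells were female (XX) hybrids of the Cast and 129S strains, in which Xist, tagged with Bgl stem loops, is under a TetOn promoter on the 129S X chromosome. Each line was 1 clone, 12D for METTL3 and Z12H for ZCCHC8, and carried FKBP12F36V on the protein, so that the small molecule dTAG-13 sends the protein to degradation. In the dTAG arm dTAG-13 was present from 2 h before doxycycline and throughout, and in the Ctrl arm it was left out. Both arms received doxycycline (1 µg/ml), first for 20 h alone and then for 4 h together with 500 µM of the uridine analogue 4-thiouridine, which labels new RNA. This pulse was followed by a chase of 0, 90 or 180 min in 50 mM uridine. Each combination of line, arm and chase time had 2 replicates, so each arm of a line had 6 libraries. Every cell, Ctrl included, therefore carried a degron and expressed induced Xist.

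ZCCHC8 is the scaffold of the nuclear exosome targeting (NEXT) complex, which with the RNA-binding protein RBM7 and the helicase MTREX hands short-lived and unprocessed nuclear transcripts to the RNA exosome. Upstream antisense transcripts of promoters and other short, poorly spliced RNAs are its known substrates. METTL3 is the enzyme behind N6-methyladenosine (m6A) in mRNA, a mark that is placed mostly in long internal exons and around stop codons and that shortens the life of many cytoplasmic mRNAs.

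The 12 METTL3 libraries held 9547507 to 18652000 reads and the 12 ZCCHC8 libraries 5274684 to 10257631. Replicates of the METTL3 line stood further apart than those of the ZCCHC8 line. A chi-square of the counts of 2 replicates of a group, divided by its degrees of freedom, ran from 20.3 to 77.9 for METTL3 and from 2.45 to 4.5 for ZCCHC8. Fitted alone, the median biological coefficient of variation was 0.115 and 0.0509 in these lines, against 0.0942 in the joint fit that all tests below use. The tag acts on the protein, and accordingly the tagged mRNAs give no check of depletion. Mettl3 mRNA was at 54.1 to 64.5 CPM (read counts scaled to a common library size) in the Ctrl and 55.3 to 63.3 in the dTAG libraries of its own line (log2 fold change 0.01, SE 0.0645, adjusted p = 0.946 in edgeR's quasi-likelihood test). Zcchc8 mRNA was at 28.2 to 42.0 CPM in the Ctrl and 32.5 to 43.2 in the dTAG libraries of the ZCCHC8 line (log2 fold change 0.07, SE 0.0741, adjusted p = 0.547). In the Ctrl libraries of the METTL3 line Zcchc8 mRNA was at 57.0 to 105 CPM. The clones thus differed at this gene before depletion, and the part of this in the responses was not tested. The mES cell identity was checked on 8 markers, among them Pou5f1, Sox2 and Nanog, whose summed level ran from 2095 to 3079 CPM over all libraries. The tested 10 of 15 markers of feeder fibroblasts summed to 28.5 to 87.5 CPM, with medians of 51.7 and 54.8 CPM in the Ctrl and dTAG libraries of METTL3 and of 66.6 and 65.8 CPM in those of ZCCHC8. Of these 10 feeder markers 4 rose and 1 fell with METTL3 loss, and 2 rose and 2 fell with ZCCHC8 loss, and their part in the results was not tested.

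Both depletions changed RNA levels at many genes, with a weak relation between their sizes. Among 14321 genes tested, 7950 passed an adjusted p of 0.05 after METTL3 loss (55.5%), 3795 of them higher and 4155 lower in dTAG. After ZCCHC8 loss 4330 genes passed (30.2%), 2171 higher and 2159 lower. The ZCCHC8 response differed from the METTL3 response, by the arm by line term, at 5943 genes (41.5%), with the ZCCHC8 value above the METTL3 value at 3120 (21.8%) and below it at 2823 (19.7%). All 6 dTAG libraries lay above or all below the 6 Ctrl libraries at 7.75% of the genes in the METTL3 line and at 8.32% in the ZCCHC8 line, the background for the remarks on overlap further on. Genes raised by both depletions numbered 731 (5.1% of those tested), which is 19.3% of the genes raised by METTL3 loss and 33.7% of those raised by ZCCHC8 loss. Another 976 genes (6.82%) were lowered by both, 23.5% and 45.2% of the respective lists. Opposite responses were found at 435 genes raised by ZCCHC8 loss and lowered by METTL3 loss (3.04%) and at 437 genes with the reverse order (3.05%). A gene was called specific when it passed in 1 line, did not pass in the other and differed between the lines in the same direction. On this definition 698 genes were raised (4.87%) and 452 lowered (3.16%) with ZCCHC8 loss, and 1688 were raised (11.8%) and 1596 lowered (11.1%) with METTL3 loss. Over all genes tested the 2 log2 fold changes were only weakly related (Pearson's r 0.164, Spearman's rho 0.185, across genes, which are not independent replicates). When each replicate was taken on its own, the r between lines ran from 0.109 to 0.19 over the 4 combinations, against 0.729 between the METTL3 replicates and 0.847 between the ZCCHC8 replicates.

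**Figure D1:**
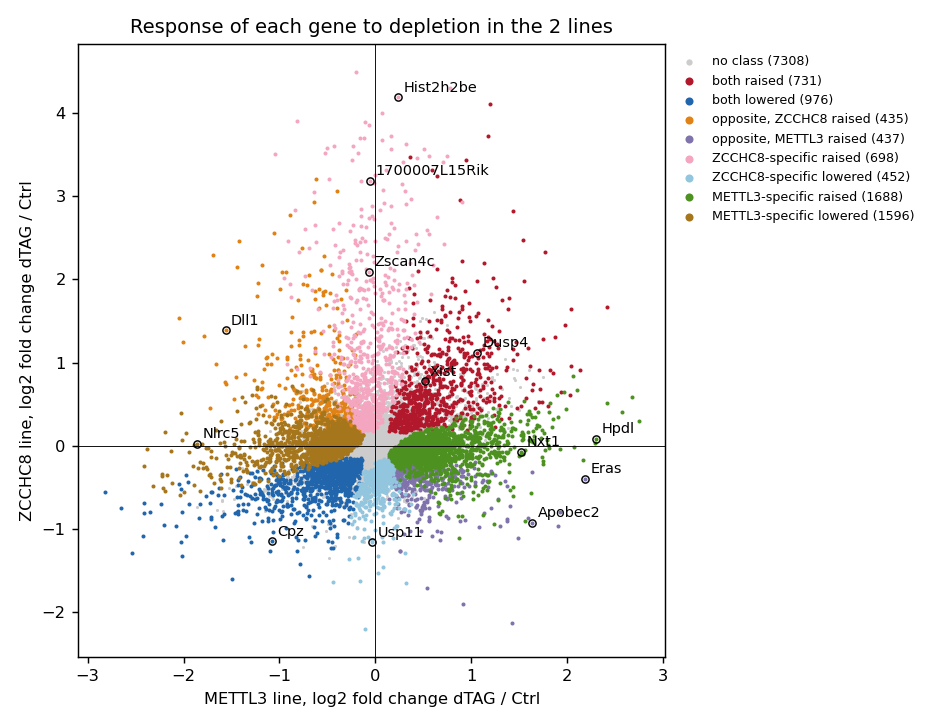
Log2 fold change (dTAG over Ctrl) after ZCCHC8 loss, on the vertical axis, against that after METTL3 loss, on the horizontal axis, 1 point for each of 14321 genes, coloured by the class it was called in. The cloud is round rather than diagonal (r 0.164), and the ZCCHC8-specific raised genes form a vertical arm that reaches above 4.

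The 6 libraries of an arm come from 2 batches of cells, so the p-values rest largely on wells of the same batch. When the 3 chase times of each replicate were summed into 1 library, the counts of genes raised and lowered by both fell to 370 and 457. Of the 731 genes raised by both, 122 were called so in each replicate fitted on its own, and of the 976 lowered by both 182 were. For the specific classes the same count was 209 of 698 and 53 of 452 for ZCCHC8, raised and lowered, and 527 of 1688 and 427 of 1596 for METTL3.

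Genes raised by both depletions had a median log2 fold change of 0.56 after METTL3 loss and 0.57 after ZCCHC8 loss, and 46 of 731 at least doubled in both. Dusp4, a phosphatase that switches off ERK, was at 10.7 to 16.7 CPM in the Ctrl libraries of METTL3 and 19.2 to 44.1 in its dTAG libraries. In the ZCCHC8 line Dusp4 was at 7.89 to 13.3 CPM in Ctrl and 17.9 to 25.5 CPM in dTAG. The arms did not overlap in either line, and the log2 fold changes were 1.06 (SE 0.106, adjusted p = 8.89e-10) and 1.12 (SE 0.124, adjusted p = 1.83e-08). Elobl, an elongin B-like gene, rose by a log2 fold change of 0.93 and 1.09 after METTL3 and ZCCHC8 loss. For Chrna9, a nicotinic acetylcholine receptor subunit, the values were 0.99 and 1.50, and for Pdha2, the testis form of a pyruvate dehydrogenase subunit, 1.21 and 1.11. Plaur, the urokinase receptor, and Ssc4d, a scavenger receptor family member, completed the 6 with the largest shared rise. Plaur was at a median of 3.05 and 8.05 CPM in the Ctrl and dTAG libraries of METTL3 and of 4.79 and 9.58 CPM in those of ZCCHC8. The Plaur arms overlapped in both lines, although dTAG was higher in 6 of 6 pairs of the same replicate and chase time in each line.

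Genes lowered by both were more highly expressed and longer than genes at large, as were some other classes. Their median level was 37.2 CPM against 24.7 over all genes, and their median gene span 34800 bases against 24190 for coding genes at large. ZCCHC8-specific lowered genes had 31.2 CPM and 39870 bases, and opposite genes raised by METTL3 loss 32.9 CPM and 36690 bases. METTL3-specific lowered genes had 39.1 CPM and 22550 bases. Of the 976, 12 at least halved in both lines. Mcu, the pore subunit of the mitochondrial calcium uniporter, was at 24.1 to 38.2 CPM in Ctrl and 14.1 to 20.9 CPM in dTAG of the METTL3 line. The ZCCHC8 line gave 22.4 to 34.1 CPM and 11.7 to 15.9 CPM. Mcu thus fell in both lines with no overlap of the arms, by 0.94 (SE 0.0747, adjusted p = 1.18e-11) and 0.99 (SE 0.083, adjusted p = 3.75e-11) on the log2 scale. Cpz, a carboxypeptidase that acts on Wnt proteins, had log2 fold changes of -1.08 and -1.15 after METTL3 and ZCCHC8 loss. Jdp2, a repressor of AP-1 sites, had -1.06 and -1.04, and Chst3, a chondroitin sulfotransferase, -1.06 and -0.90. Ppp1r13l, an inhibitor of p53, was at -1.18 and -0.91. Angpt2, a ligand of the Tie2 receptor that lies inside the Mcph1 gene, fell by 1.72 after METTL3 loss and by 0.89 after ZCCHC8 loss, and this difference passed the test (0.83, SE 0.178, adjusted p = 0.000359).

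**Figure D2:**
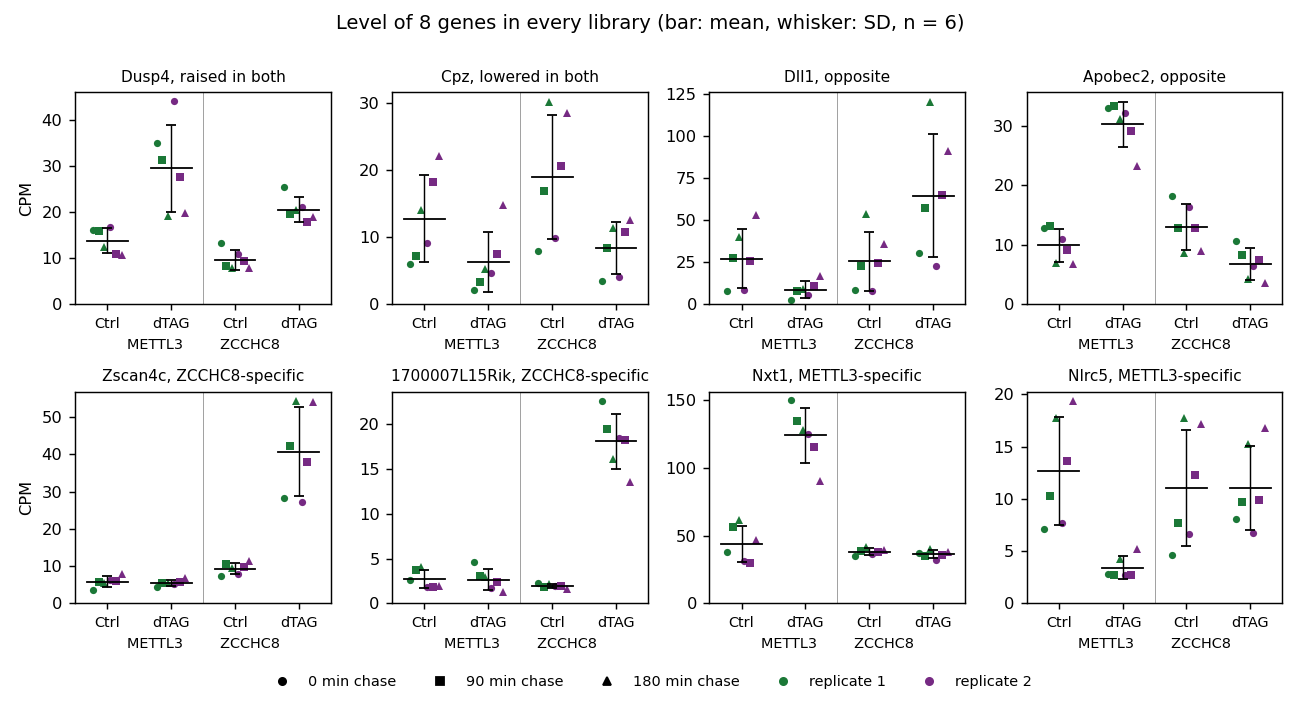
CPM on a linear axis in each of the 24 libraries for 8 genes of the classes, by arm and line, with symbols for the chase time, colours for the replicate, and a bar and whiskers for the mean and SD of 6 libraries. Dusp4 steps up and Cpz steps down in both lines, Dll1 and Apobec2 move in opposite directions, and Zscan4c, 1700007L15Rik, Nxt1 and Nlrc5 move in 1 line.

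Among the opposite responses, Dll1, a Notch ligand, was at 8.08 to 52.99 CPM (median 26.6) in Ctrl and 2.48 to 16.99 CPM (median 8.26) in dTAG of the METTL3 line. In the ZCCHC8 libraries Dll1 was at 8.13 to 53.9 CPM (median 23.8) in Ctrl and 22.9 to 120 CPM (median 61.0) in dTAG. The arms overlap in both lines over the chase times, but within pairs of the same replicate and chase time Dll1 was lower in 6 of 6 with METTL3 loss and higher in 6 of 6 with ZCCHC8 loss. Its log2 fold changes were -1.56 (SE 0.141, adjusted p = 4.75e-10) and 1.39 (SE 0.13, adjusted p = 1.84e-09). Gadd45g, a stress-induced growth regulator, behaved in the same way, with -1.36 and 1.20. Slc23a1, a vitamin C transporter whose gene overlaps Paip2, had -1.22 and 1.29. The noncoding gene 4631405K08Rik, which overlaps the miR-205 gene, had -1.06 and 2.56. In the reverse order, Apobec2, a member of the cytidine deaminase family, rose from 6.79 to 13.1 CPM in Ctrl to 23.2 to 33.3 CPM in dTAG after METTL3 loss. Its ZCCHC8 libraries were at 8.70 to 18.3 CPM in Ctrl and 3.59 to 10.7 CPM in dTAG, so that the arms overlapped there. The log2 fold changes of Apobec2 were 1.63 and -0.93. Cbr3, a carbonyl reductase, had 1.37 and -0.88, BC067074 had 0.94 and -0.90, and Ccm2, an adaptor of the cerebral cavernous malformation pathway, had 1.20 and -0.75. Of the genes in these opposite classes 18 and 2 reached a log2 fold change of 1 in both lines.

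The ZCCHC8-specific raised class had the largest median change of the 8 classes (0.85 on the log2 scale) and the largest share of noncoding genes. Of its 698 genes 187 at least doubled in the ZCCHC8 line with a log2 fold change under 0.25 in absolute value in the METTL3 line. Long intergenic noncoding RNAs made up 15.9% of the class (111 genes), against 2.61% of all genes tested and 0.711% of the METTL3-specific raised genes. They made up 6.16% of the genes raised by both and 8.05% of the opposite genes raised by ZCCHC8 loss. The class was low in abundance (median 5.30 CPM). Its coding genes were short, with a median span of 11210 bases and 6 exons against 24190 bases and 9 exons for all coding genes, and 10.4% of them had a single exon against 2.83%. The other classes raised by ZCCHC8 loss were short as well. Coding genes raised by both had 13880 bases, 6 exons and 6.92% with a single exon. Opposite genes raised by ZCCHC8 loss had 13750 bases, 8 exons and 6.77%. Gene structure was taken from GENCODE M21 on mm10. As the low-count filter worked by line and arm, ZCCHC8-specific raised genes near the floor could be tested through their ZCCHC8 dTAG libraries alone. For such genes a rise was favoured by the filter. Their part in the median change, the noncoding share and the gene structure of the class was not tested.

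Hist2h2be, a histone H2B gene, had the largest difference among its coding genes. It was at 0.389 to 1.56 CPM in the Ctrl libraries of ZCCHC8 and at 13.8 to 22.2 CPM in dTAG, whereas the METTL3 libraries were at 0.359 to 1.52 and 0.570 to 1.95 CPM. The log2 fold change was 4.19 in the ZCCHC8 line (SE 0.206, adjusted p = 2e-16) and 0.24 in the METTL3 line (SE 0.255, adjusted p = 0.44). It was the largest rise of its family, for among 62 replication-dependent histone genes tested 15 rose and 7 fell with ZCCHC8 loss, and 2 rose and 9 fell with METTL3 loss. Pomc, the precursor of several peptide hormones, was at 1.92 to 4.59 CPM in Ctrl and 11.7 to 17.3 CPM in dTAG of the ZCCHC8 line, a log2 fold change of 2.33 against -0.16 (adjusted p = 0.493) after METTL3 loss. BC049715, which overlaps Wbp11 and Smco3, was at 3.32 against 0.12. Fhl4, a LIM domain gene, was at 2.24 against -0.21.

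Among noncoding genes, 4932422M17Rik rose from 1.54 to 4.86 CPM in Ctrl to 32.7 to 51.4 CPM in dTAG of the ZCCHC8 line, a log2 fold change of 3.68 (SE 0.126, adjusted p = 4.08e-20). The METTL3 libraries were at 1.38 to 3.45 and 1.54 to 3.76 CPM, with the arms overlapping. The corresponding values of 1810019N24Rik were 3.57 with ZCCHC8 loss and 0.16 with METTL3 loss. Both genes overlap others on the opposite strand, Gm29638 for 1810019N24Rik and AI480526 and Gm26745 for 4932422M17Rik. AI480526 had a log2 fold change of 1.75 after ZCCHC8 loss, and reads of overlapping genes cannot be told apart here. The gene 1700007L15Rik was at 1.62 to 2.31 CPM in Ctrl and 13.6 to 22.6 CPM in dTAG of ZCCHC8, a log2 fold change of 3.19 against -0.05. It starts 109 bases from the start of Zfp148, on the other strand (opposite strands, separate starts).

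That arrangement was common in the class and was therefore counted over all noncoding genes. A noncoding gene was called divergent when a coding gene starts on the other strand within 1000 bases of its own start. The genes of a pair were not required to point away from each other. Some overlap their partner, as B230354K17Rik does with Cdc5l and CT025678.1 with Prdm10. Of 80 divergent noncoding genes tested, 68 rose and 0 fell after ZCCHC8 loss (85%), with a median log2 fold change of 1.74, while METTL3 loss raised 14 and lowered 11 with a median of 0.01. The difference between lines passed for 64, each time higher with ZCCHC8 loss. At an unadjusted p under 0.05 in edgeR, and at the adjusted threshold in DESeq2 and limma voom, 0 of the 80 were lower as well. Among the other 334 noncoding genes 154 rose (46.1%) and 9 fell, with a median of 0.39. The low-count filter was applied by line and arm, so a gene could be tested through its ZCCHC8 dTAG libraries alone. The 80 genes had a median level of 1.95 CPM and the 334 of 2.05 CPM. At such levels the filter favours rises over falls in that line, and how many genes entered this way was not counted. The 75 coding partners of the divergent noncoding genes did not share the rise, as 5 rose and 8 fell after ZCCHC8 loss with a median of -0.05. As the use of strand in counting is not stated, reads from overlapping genes cannot be told apart, and 28 of the 80 overlap a gene on the other strand. In the remaining 52, 44 rose (84.6%) with a median of 1.61. Of 393 coding genes with a single exon 159 rose and 13 fell after ZCCHC8 loss (40.5% raised), and 102 rose and 75 fell after METTL3 loss. In the YTHDC1 degron line of the series, which depletes the nuclear m6A reader, the 56 divergent noncoding genes that could be tested had a median of 0.02, with 7 higher and 2 lower. Over all 13660 genes tested in that line 12.8% were higher and 15.4% lower.

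**Figure D3:**
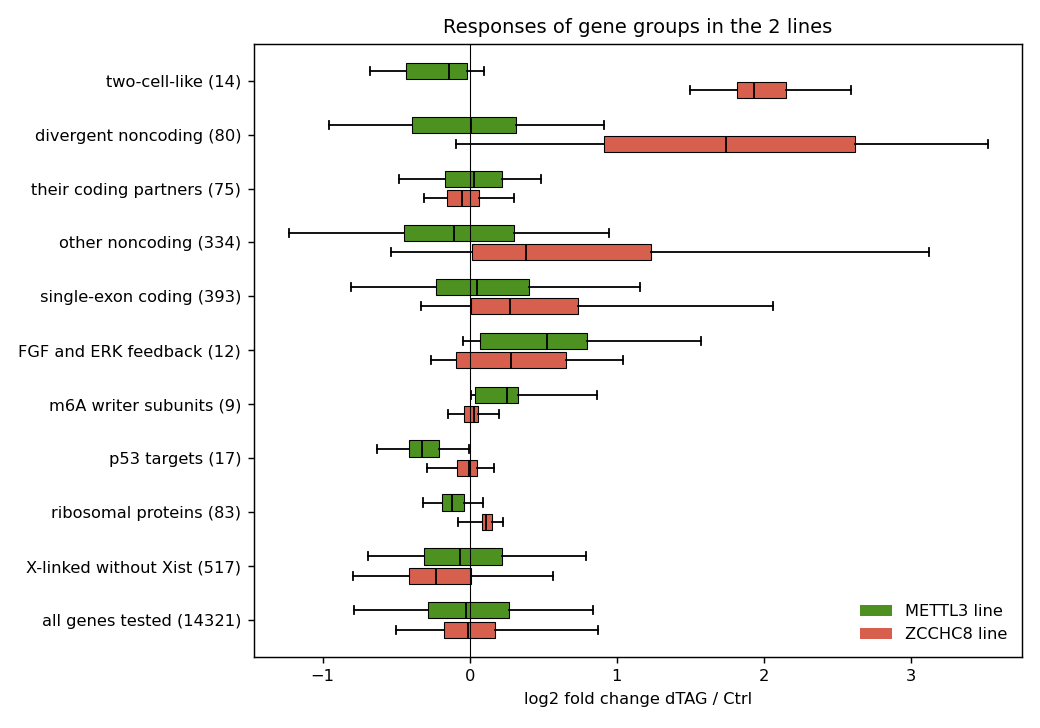
Log2 fold change (dTAG over Ctrl) of groups of genes after METTL3 and after ZCCHC8 loss, with the number of genes tested, as boxes from the lower to the upper quartile over genes, a line at the median and whiskers from percentile 5 to percentile 95. The divergent noncoding genes stand at 1.74 after ZCCHC8 loss and at 0.01 after METTL3 loss, and their coding partners at -0.05 and 0.03.

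Promoter sequences of RefSeq (build GRCm38.p6, 250 bases before to 50 bases after the start) were available for 43 of these 80 genes and for 10830 of the 14321 genes tested. They are shown for a divergent noncoding gene and for a pair of coding genes of the same class, since the windows differ in their CG dinucleotides, which are in capitals. Of the coding pair, Fhl4 also starts close to a coding gene on the other strand, Tmem263, at 132 bases. The windows are chr16:33380687-33380986 (minus strand) for 1700007L15Rik, chr10:85102446-85102745 (minus strand) for Fhl4 and chr7:11005495-11005794 (plus strand) for Zscan4c.
1700007L15Rik: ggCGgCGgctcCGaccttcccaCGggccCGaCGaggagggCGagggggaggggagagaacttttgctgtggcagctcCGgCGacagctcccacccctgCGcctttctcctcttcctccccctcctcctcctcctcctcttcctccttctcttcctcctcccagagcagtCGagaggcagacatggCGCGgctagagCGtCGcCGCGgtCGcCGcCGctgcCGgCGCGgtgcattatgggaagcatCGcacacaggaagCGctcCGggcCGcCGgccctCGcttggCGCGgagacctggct
Fhl4: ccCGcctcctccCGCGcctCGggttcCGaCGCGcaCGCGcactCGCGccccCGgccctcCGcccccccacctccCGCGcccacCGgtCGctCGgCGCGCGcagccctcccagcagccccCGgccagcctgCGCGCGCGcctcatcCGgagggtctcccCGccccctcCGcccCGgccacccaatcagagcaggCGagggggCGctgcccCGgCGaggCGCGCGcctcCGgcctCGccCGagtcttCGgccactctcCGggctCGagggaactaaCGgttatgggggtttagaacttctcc
Zscan4c: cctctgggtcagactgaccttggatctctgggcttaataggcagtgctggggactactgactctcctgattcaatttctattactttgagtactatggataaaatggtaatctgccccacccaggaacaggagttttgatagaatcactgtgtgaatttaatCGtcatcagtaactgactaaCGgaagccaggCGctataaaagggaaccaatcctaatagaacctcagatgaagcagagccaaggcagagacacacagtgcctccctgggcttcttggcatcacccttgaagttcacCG
The 3 windows hold 31, 44 and 4 CG dinucleotides. The median was 30 for the divergent noncoding genes, 7 for the other noncoding genes with a window (123 genes) and 20 for all genes with one. These counts describe the windows and say nothing on how the transcripts are degraded.

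Genes of the two-cell-like state, which a small part of mES cells enters and which carries transcripts of the early embryo, rose after ZCCHC8 loss in every case tested. Zscan4c, a zinc finger gene that marks this state, was at 7.32 to 11.4 CPM in Ctrl and 27.3 to 54.3 CPM in dTAG of the ZCCHC8 line (log2 fold change 2.09, SE 0.105, adjusted p = 2.58e-16). The METTL3 libraries held 3.51 to 8.004 CPM in Ctrl and 4.37 to 6.81 CPM in dTAG (log2 fold change -0.07, SE 0.121, adjusted p = 0.656). Tcstv3 rose by 1.90 against -0.15. All 14 of the list rose in the ZCCHC8 line with log2 fold changes from 1.44 to 2.78 (median 1.93), where 15.2% of all genes did so. In the METTL3 line 0 rose and 3 fell, with a median of -0.14, and the difference passed for all 14. The 0 held at an unadjusted p under 0.05 in edgeR and in DESeq2 and limma voom. In the YTHDC1 line 9 could be tested, of which 7 were lower and 0 higher, where 15.4% of all genes were lower and 12.8% higher. Several of these genes are near-identical copies that share reads, so they do not count as 14 separate observations. Their medians in the ZCCHC8 Ctrl libraries ran from 0.59 to 16.0 CPM. The low-count filter was applied by line and arm, so those near the floor could be tested through their ZCCHC8 dTAG libraries alone. For such genes a rise was favoured by the filter. In bulk libraries more cells in the state and more RNA per cell cannot be told apart.

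ZCCHC8-specific lowered genes were few and their changes small, with 17 of 452 at least halved in the ZCCHC8 line alone. Usp11, an X-linked deubiquitinase, was at 52.5 to 72.3 CPM in Ctrl and 23.4 to 30.4 CPM in dTAG of the ZCCHC8 line, without overlap, against 52.6 to 68.1 and 47.2 to 63.1 CPM in the METTL3 line. Its log2 fold changes were -1.16 (SE 0.0749, adjusted p = 1.05e-13) and -0.04 (adjusted p = 0.676). Coq2, an enzyme of ubiquinone synthesis, had -1.16 and 0.08. Pde6d, a carrier of prenylated proteins, had -1.10 and -0.07, and Rnf157, an E3 ubiquitin ligase, had -1.02 and 0.00. Just 1 noncoding gene met the rule in this direction, Tmem250-ps with -0.34 and 0.11.

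Of the 1688 METTL3-specific raised genes 1675 were protein-coding, as were 13893 of all 14321 genes tested. Hpdl, a mitochondrial dioxygenase-like protein, was at 2.33 to 5.05 CPM in Ctrl and 7.71 to 30.1 CPM in dTAG of the METTL3 line, without overlap, and at 2.98 to 8.10 and 2.92 to 7.93 CPM in the ZCCHC8 line. The log2 fold changes were 2.30 (SE 0.172, adjusted p = 6.79e-12) and 0.08 (SE 0.216, adjusted p = 0.813). Aldh1b1, a mitochondrial aldehyde dehydrogenase, had 1.80 and 0.00. Cited4, a transcriptional co-activator, had 1.62 and 0.05, and Tradd, an adaptor of the TNF receptor, 1.54 and -0.10. Nxt1, a cofactor of mRNA export, was at 30.1 to 61.6 CPM in Ctrl and 90.5 to 150 CPM in dTAG of the METTL3 line. In the ZCCHC8 line Nxt1 was at 35.3 to 41.9 and 31.9 to 40.4 CPM, and the log2 fold changes were 1.52 (SE 0.102, adjusted p = 9.02e-13) and -0.07. Mrpl43, a mitochondrial ribosomal protein gene that overlaps Twnk, had 1.50 and -0.13. Gm43055, the 1 noncoding gene that met the rule, overlaps Ythdc1 and had 0.72 and -0.08.

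METTL3-specific lowered genes were led by Nlrc5, a regulator of MHC class I genes, at 7.13 to 19.4 CPM in Ctrl and 2.69 to 5.25 CPM in dTAG of the METTL3 line. Its log2 fold change was -1.86 (SE 0.127, adjusted p = 5.38e-13), against 0.03 after ZCCHC8 loss (adjusted p = 0.902). Trp73, a p53 family member, was at a median of 99.8 CPM in Ctrl and 34.5 CPM in dTAG of METTL3, where the arms did not overlap, and had -1.62 against 0.03. Ttbk1, a tau kinase, had -1.22 and 0.14. The noncoding genes AC125351.1 and Gm26945, the latter overlapping Rian, had -1.10 and -0.57 after METTL3 loss and -0.15 and 0.08 after ZCCHC8 loss.

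Features of gene structure differed between the METTL3 classes. The longest exon of coding genes had a median of 2104 bases in the raised and 1686 bases in the lowered class, against 1961 bases over all coding genes. The letters GGACT, a common form of the m6A target motif, occurred on the transcript strand at a median of 1.13 per kb in the raised, 1.01 in the lowered and 1.04 in all coding genes. The number of exons was 7 and 11, against 9. Any exon could be the longest, terminal ones included. The longest exon was no shorter in some other classes. It had a median of 2193 bases in ZCCHC8-specific lowered genes, 2118 in genes raised by both and 2377 in opposite genes raised by METTL3 loss. GGACT stood at 1.09, 1.11 and 1.06 per kb in these 3 classes, so neither feature was particular to the METTL3-specific raised class.

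The share of new RNA also separated the METTL3-specific classes. The deposited new-to-total ratio is the part of the reads of a gene assigned to RNA made in the pulse, and it falls when RNA lives longer at an unchanged rate of synthesis. At 0 min of chase, over genes with at least 100 reads in each of the 4 libraries compared, the ratio of the METTL3-specific raised genes was lower in dTAG than in Ctrl by a median of -0.111 in replicate 1 and -0.167 in replicate 2 (1142 genes). This compares with -0.0181 and -0.0571 over 8821 genes of the METTL3 line. It was lower at 86.2% and 94.7% of the class and at 59.4% and 78.9% of all genes. For METTL3-specific lowered genes the medians were 0.0198 and -0.0105. Opposite genes raised by METTL3 loss had -0.101 and -0.157 in the METTL3 line and were lower at 85.7% and 95.2%. The fall of the ratio was thus not particular to the METTL3-specific raised class. Genes raised by both had -0.068 and -0.114 in the METTL3 line. Their ZCCHC8 values were -0.0209 and -0.0386, where the median over 7552 genes was -0.0004 and -0.0299. ZCCHC8-specific raised genes had -0.0096 and -0.0321 in the ZCCHC8 line, near these medians. With 2 values in each arm an exact permutation test of a single gene cannot go below p = 0.333, so the ratios are given as values only. The Nxt1 ratio was 0.901 and 0.932 in the Ctrl and 0.417 and 0.428 in the dTAG replicates of METTL3, against 0.956 and 0.942 in Ctrl and 0.962 and 0.926 in dTAG of ZCCHC8. For Mrpl43 the METTL3 line gave 0.690 and 0.750 in Ctrl and 0.232 and 0.292 in dTAG, and the ZCCHC8 line 0.707 and 0.700 in Ctrl and 0.706 and 0.737 in dTAG. Counts and ratio come from the same reads, and the ratio of a line is thus no separate sample of cells.

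In Ctrl cells of the YTHDC1 line, which were not used to define the classes, the median ratio at 0 min was 0.736 for genes raised by both, 0.726 for METTL3-specific raised genes, 0.467 for genes lowered by both and 0.417 for METTL3-specific lowered genes, against 0.578 over 9258 genes. It was 0.533 for opposite genes raised by METTL3 loss, 0.6405 for those raised by ZCCHC8 loss, and 0.602 and 0.5195 for ZCCHC8-specific raised and lowered genes.

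**Figure D4:**
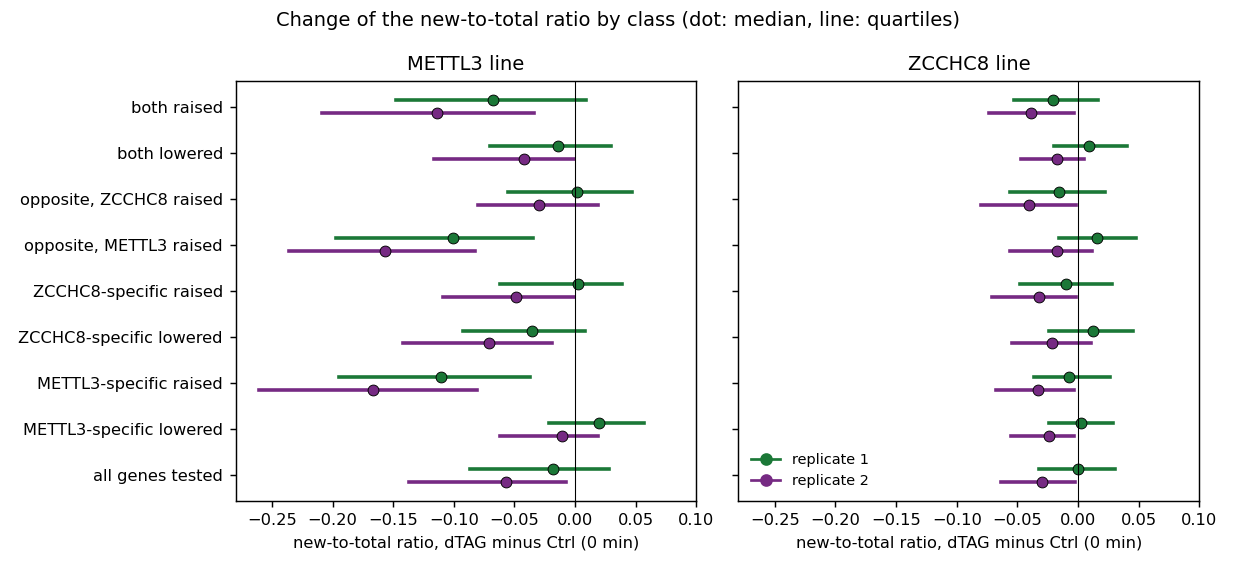
Change of the new-to-total ratio (dTAG minus Ctrl) at 0 min of chase by class of gene, for each replicate of the METTL3 and ZCCHC8 lines, as the median with a bar from the lower to the upper quartile over genes. METTL3-specific raised genes are at -0.111 and -0.167 in the METTL3 line, below the all-gene medians of -0.0181 and -0.0571. Opposite genes raised by METTL3 loss are at -0.101 and -0.157 there.

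Pathway lists were read against the shares of all genes tested (26.5% raised and 29% lowered by METTL3 loss, 15.2% and 15.1% by ZCCHC8 loss). Where 0 is given for a list, 0 of its genes also passed an unadjusted p under 0.05 in edgeR or the adjusted threshold in DESeq2 and limma voom, apart from 3 exosome-related genes raised (unadjusted p and voom) and 1 ribosomal protein gene lowered (voom) with ZCCHC8 loss. A list of 12 genes covered FGF and ERK feedback, the brake on a signal that drives mES cells out of self-renewal. It also held Eras, a Ras gene that is not part of this brake. Of the 12 genes 8 rose, Eras among them, and 0 fell with METTL3 loss. With ZCCHC8 loss 6 rose and 1 fell, which was Eras. The 5 raised by both include Dusp4, Dusp6 (0.69 and 0.53) and Etv4 (0.45 and 0.41). Spry2 rose with ZCCHC8 loss (0.78, against -0.10 with METTL3 loss), and Spry1 and Spred1 with METTL3 loss (0.60 and 0.79, against 0.14 and -0.15). Eras, an ES-cell Ras protein, went from 11.5 to 28.7 CPM in Ctrl to 61.0 to 112 CPM in dTAG of the METTL3 line, a log2 fold change of 2.19, and fell by 0.40 in the ZCCHC8 line (adjusted p = 0.0155). Its new-to-total ratio went from 0.452 and 0.527 to 0.211 and 0.164 with METTL3 loss and from 0.431 and 0.415 to 0.542 and 0.513 in the ZCCHC8 line.

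Of 14 BMP and Nodal genes and targets, 8 rose and 4 fell with METTL3 loss and 6 rose and 1 fell with ZCCHC8 loss. The BMP targets Id1 (0.50 and 0.80), Id2 (0.45 and 0.28) and Id3 (0.91 and 1.31) rose in both lines. Smad6 and Bambi, inhibitors of BMP signalling, rose by 1.33 and 1.25 with METTL3 loss and were at 0.12 (adjusted p = 0.71) and 0.22 (adjusted p = 0.0452) with ZCCHC8 loss. Lefty1, an inhibitor of Nodal, fell by 1.01 with METTL3 loss and was at 0.26 with ZCCHC8 loss (adjusted p = 0.0849).

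Markers of developmental states were read in the same way. Of 10 early differentiation genes 7 rose and 0 fell with METTL3 loss and 2 rose and 0 fell with ZCCHC8 loss, and the difference between lines passed for 2, among them Eomes, a mesendoderm factor (1.82 and 0.51, difference -1.31, SE 0.278, adjusted p = 0.000374). Most of the 10 early differentiation genes were near the floor, at a few CPM or less in both lines, so their counts rest on few reads. Of 12 formative and primed state genes 9 rose and 0 fell with ZCCHC8 loss and 4 rose and 3 fell with METTL3 loss. Among them were Otx2 (0.82 with ZCCHC8 and -0.10 with METTL3 loss), Dnmt3a (0.48 and -0.10) and Dnmt3b (0.34 and -0.52), the latter pair encoding de novo DNA methyltransferases. Of 15 naive pluripotency factors 6 rose and 4 fell with METTL3 loss and 2 rose and 1 fell with ZCCHC8 loss. Klf4 rose by 0.62 with METTL3 loss and was at -0.14 with ZCCHC8 loss, while Nr0b1 was at -0.64 and -0.01. Dppa3, a naive state and germline gene, was opposite (-0.48 and 0.49). Of 13 immediate early genes 8 rose and 1 fell with ZCCHC8 loss, whereas 2 rose and 5 fell with METTL3 loss. Dusp1, a phosphatase of stress kinases, was at 0.92 with ZCCHC8 and -0.03 with METTL3 loss, Jun at 0.32 and -0.35, and Fosl1 at -0.77 and -1.11.

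A list of 9 m6A writer genes held subunits of the METTL3 complex and Mettl16, a methyltransferase outside that complex. Of these 9 genes 4 rose and 0 fell with METTL3 loss and 1 rose and 0 fell with ZCCHC8 loss. Wtap, the scaffold that anchors METTL3, was at 111 to 209 CPM in Ctrl and 236 to 424 CPM in dTAG of the METTL3 line, without overlap, with a log2 fold change of 1.05 against 0.06 in the ZCCHC8 line. Its new-to-total ratio fell from 0.860 and 0.922 to 0.575 and 0.542 in the METTL3 line. Virma and Mettl16 rose with METTL3 loss (0.60 and 0.29), and Rbm15 rose in both lines (0.33 and 0.27). Of 12 m6A readers and erasers 5 rose and 3 fell with METTL3 loss, among them Ythdf2 (0.65), Ythdc1 (0.58) and Ythdf1 (0.34), which were at -0.04, 0.01 and 0.04 with ZCCHC8 loss. Of 19 subunits of the NEXT and PAXT adaptors and the exosome 0 rose and 1 fell with ZCCHC8 loss, Exosc3 (-0.22), and 5 rose and 5 fell with METTL3 loss.

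Long nuclear noncoding RNAs rose with ZCCHC8 loss in 8 of 12 cases, with 0 lower, and 3 rose and 4 fell with METTL3 loss. Xist was at 495 to 1359 CPM (median 844) in Ctrl and 892 to 1503 CPM (median 1288) in dTAG of the METTL3 line. The ZCCHC8 line gave 727 to 1710 CPM (median 1315) and 1507 to 2824 CPM (median 2106). The arms overlapped in both lines, and dTAG was higher in 5 of 6 pairs with METTL3 loss and in 6 of 6 with ZCCHC8 loss. The log2 fold changes were 0.51 (SE 0.0895, adjusted p = 2.16e-05) and 0.78 (SE 0.0895, adjusted p = 9.69e-08). The METTL3 value rested on replicate 1, as without it Xist was at 0.28 (adjusted p = 0.055). The difference between lines of 0.26 (SE 0.126) did not pass (adjusted p = 0.0964), and it was -0.03 in replicate 1 and 0.54 in replicate 2. Xist overlaps its antisense partner Tsix. Jpx rose in both lines (1.23 and 2.02), as did H19 (0.34 and 0.33). Meg3, a maternally expressed RNA, was at 149 to 331 CPM in Ctrl and 72.8 to 155 CPM in dTAG of METTL3, against 246 to 362 and 392 to 467 CPM in the ZCCHC8 line, so it moved in opposite directions (-1.07 and 0.50). Mirg, from the same imprinted cluster, followed it (-0.34 and 0.44). Of the snoRNA host noncoding genes, 5 of 8 entries rose and 0 fell in each line. Dancr is listed under a pair of gene identifiers, and both of its entries are among the 5. Values were larger after ZCCHC8 loss for both entries of Dancr (1.89 against 0.35, and 1.50 against 0.32) and for Snhg20 (1.17 against 0.28).

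**Figure D5:**
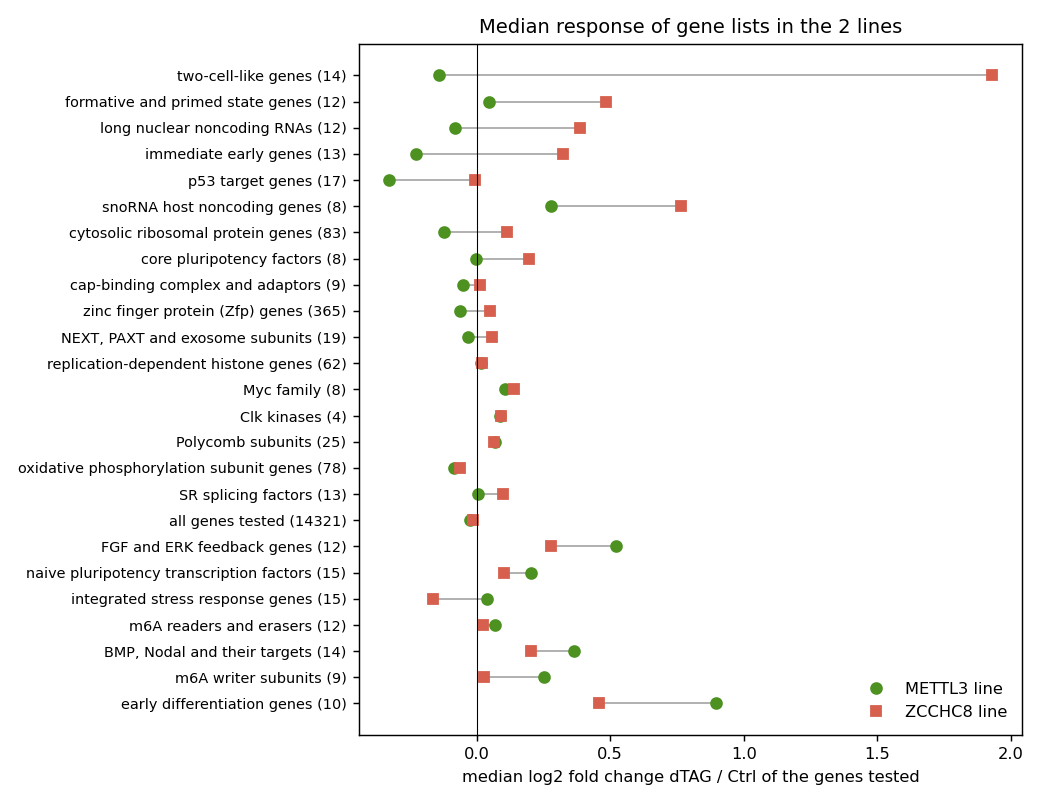
Median log2 fold change (dTAG over Ctrl) of each gene list after METTL3 loss and after ZCCHC8 loss, with the number of genes tested. The two-cell-like list is at 1.93 after ZCCHC8 loss and -0.14 after METTL3 loss, and the FGF and ERK feedback list is above 0 in both.

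Lists of general cell physiology were counted in the same way. The 83 cytosolic ribosomal protein genes had medians of -0.12 with METTL3 and 0.11 with ZCCHC8 loss, with 28 lowered and 3 raised in the former and 15 raised and 0 lowered in the latter. The METTL3 count rested on replicate 1, since without it 4 of the genes were lowered. Of 17 p53 targets 13 fell and 0 rose with METTL3 loss, 7 of them without METTL3 replicate 1, and 1 rose and 2 fell with ZCCHC8 loss. Mdm2, the ubiquitin ligase of p53, fell in both (by 0.35 and 0.27). Oxidative phosphorylation subunits fell at 26 of 78 with METTL3 and 10 of 78 with ZCCHC8 loss, and rose at 5 and 4. For SR splicing factors (13 genes) the counts were 1 raised and 2 lowered with METTL3 loss and 1 raised and 0 lowered with ZCCHC8 loss. Of 25 Polycomb subunits 8 rose and 7 fell with METTL3 loss, against 3 and 2 with ZCCHC8 loss. Zinc finger (Zfp) genes, 365 in all, rose at 88 and fell at 120 with METTL3 loss and rose at 67 and fell at 39 with ZCCHC8 loss.

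X-linked genes, on the chromosome that induced Xist acts upon, were lowered at a larger share of genes than autosomal ones with ZCCHC8 loss, a description with no test of the shares. Of 517 tested without Xist, 209 fell (40.4%) and 39 rose with ZCCHC8 loss, with a median of -0.23, whereas 14.1% of 13788 autosomal genes fell. With METTL3 loss 175 fell (33.8%) and 119 rose, with a median of -0.07, against 28.8% of autosomal genes lowered. The METTL3 order rested on replicate 2, since without METTL3 replicate 2 96 X-linked genes fell (18.6%) against 21.1% of autosomal genes, and without replicate 2 of both lines 17.8% against 20.0%. The ZCCHC8 count was 128 without ZCCHC8 replicate 1 (23.7%, against 6.12% of autosomal genes) and 101 without ZCCHC8 replicate 2 (18.6%, against 5.47%). Of the genes lowered by both 9.73% were X-linked (95 genes), as were 10.8% of the ZCCHC8-specific lowered genes and 1.64% of those raised by both, against 3.62% of all genes tested. The difference between the responses passed at 149 X-linked genes that were lower and 72 that were higher with ZCCHC8 loss. In the YTHDC1 line 128 of 492 X-linked genes tested were higher and 48 lower, with a median of 0.09. Over all 13660 genes tested in that line 12.8% were higher and 15.4% lower. The counts do not separate the 2 alleles.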

How the data were processed

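Read counts of the 24 libraries were taken as the authors deposited them, unnormalized whole numbers per gene from GRAND-SLAM (version not given in the sources used here) after alignment to mm10 with STAR 2.5.2b and a UCSC annotation. The use of strand in counting is not stated. The deposited new-to-total ratio is a fraction estimated by the authors within each table of 1 line and replicate. The deposited conversion and coverage signal was used only to look at labelling, and 288 other columns were not used.

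Genes listed in all 4 tables and kept by filterByExpr, grouped by line and arm, numbered 14321. They were fitted with edgeR 4.0.16 in R 4.3.3 (TMM, robust quasi-likelihood test, Benjamini-Hochberg, threshold 0.05). The model held replicate nested in line, chase time, arm and arm by line. Fold changes are log2 of dTAG over Ctrl. The replicate is a block because the study states that wells of a replicate were split from 1 batch of cells. Same-numbered groups deviated together with r of 0.552 to 0.875 (median 0.758) in the METTL3 and 0.0982 to 0.196 (median 0.164) in the ZCCHC8 line, over 15 pairs of groups each. Libraries summed over the chase, DESeq2 1.42.0, limma 3.58.1 (voom), other filters, thinned counts and left-out replicates were the alternatives. The model was tested on simulated data: of 200 genes with a log2 difference of 1 between lines, 81.5% were recovered among 13989 genes, with 12 false calls. The simulated libraries were independent, with 1 spread per gene for both lines and no other response. In the real data the lines differ in spread and wells share a batch, so the simulation gives no rate of false calls for them.

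Genes named for a class had a mean of at least 5 CPM, and 6 of 6 pairs of the same replicate and chase time in the called direction. Of these the 6 (both raised, both lowered) or 4 (opposite) with the largest smaller change were taken, and for the specific classes the coding (6 raised, 4 lowered) and other genes (3 raised, 2 lowered) with the largest difference between lines and a change under 0.25 in the other line. Some items are not reported here. From the lists, genes were named by the adjusted p of the difference or because they were called in both lines. The level and pair limits were not kept for 8 entries that come from lists or are always named (Bambi, Smad6, Eras, Jun, Jpx, Xist, Snhg20 and 1 entry of Dancr), of which Smad6 and Jpx had a mean under 5 CPM. The classes, members and lists were chosen with earlier results of these data known. Gene positions and structure are from GENCODE M21, promoters from RefSeq (GRCm38.p6). Overlaps with other annotated genes are stated for some named genes and not for all.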

Additional observations from a re-analysis of the deposited data

Results flagged for a closer look

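The responses to the 2 depletions differed at 5943 genes by the arm by line term of the edgeR fit, and the named genes among them are given here with the log2 difference, the ZCCHC8 response minus the METTL3 response. Among genes raised by ZCCHC8 loss alone it was 3.95 for Hist2h2be, 3.61 for 4932422M17Rik, 3.40 for 1810019N24Rik, 3.24 for 1700007L15Rik, 3.21 for BC049715, 2.49 for Pomc, 2.44 for Fhl4, 2.16 for Zscan4c and 2.05 for Tcstv3. Otx2, Dusp1, Spry2 and Dnmt3a followed with 0.93, 0.95, 0.88 and 0.57. Genes that moved in opposite directions and rose with ZCCHC8 loss had 3.61 (4631405K08Rik), 2.95 (Dll1), 2.56 (Gadd45g), 2.504 (Slc23a1), 1.57 (Meg3), 0.97 (Dppa3), 0.85 (Dnmt3b), 0.78 (Mirg) and 0.68 (Jun). The reverse order gave -2.59 for Eras, -2.56 for Apobec2, -2.25 for Cbr3, -1.96 for Ccm2, -1.83 for BC067074 and -0.73 for Exosc3.

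Genes lowered by METTL3 loss alone had differences of 1.89 (Nlrc5), 1.66 (Trp73), 1.36 (Ttbk1), 1.27 (Lefty1), 0.95 (AC125351.1), 0.64 (Gm26945) and 0.63 (Nr0b1). Genes raised by METTL3 loss alone had -2.22 (Hpdl), -1.79 (Aldh1b1), -1.64 (Tradd), -1.63 (Mrpl43), -1.59 (Nxt1), -1.57 (Cited4), -1.31 (Eomes), -1.21 (Smad6), -0.99 (Wtap), -0.94 (Spred1), -0.79 (Gm43055), -0.76 (Klf4), -0.68 (Ythdf2), -0.58 (Ythdc1 and Virma), -0.46 (Spry1), -0.31 (Ythdf1) and -0.26 (Mettl16). Genes lowered by ZCCHC8 loss alone had -1.24 (Coq2), -1.13 (Usp11), -1.02 (Pde6d and Rnf157) and -0.45 (Tmem250-ps). Some genes called in both lines in the same direction differed in size, by 1.55 for Dancr, 0.89 for Snhg20, 0.83 for Angpt2, 0.51 for Chrna9 and -1.02 for Bambi. The classes were defined with this term, so these values describe the classes. The groups of each line, arm and chase time had 2 libraries, too few for a test of single libraries.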

How the results depend on the processing

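Calls depend on the spread and on the number of libraries. Without the replicate block, 5054 genes passed for METTL3 loss, 2239 for ZCCHC8 loss and 3206 for the difference, with 335 raised by both, 357 lowered by both, 333 opposite, 736 ZCCHC8-specific and 1843 METTL3-specific genes. With chase libraries summed, 2682 genes passed for ZCCHC8 loss and 3682 for the difference, with 370 raised by both, 457 lowered by both, 302 opposite and 2170 METTL3-specific. At an adjusted p of 0.01, 2841 passed for ZCCHC8 loss, with 389 raised by both, 577 lowered by both and 435 opposite. Libraries of 0, 90 and 180 min alone, chosen after seeing the data, gave 3154, 3959 and 3086 genes for METTL3 loss, 609, 743 and 1245 for ZCCHC8 loss, and 1508, 1428 and 1361 for the difference. They gave 42, 92 and 91 raised by both, 36, 79 and 189 lowered by both, 35, 49 and 76 opposite, 303, 274 and 398 ZCCHC8-specific and 1017, 989 and 752 METTL3-specific genes, with fewer libraries in each fit. Eras in the ZCCHC8 line was at 0.0022 in the 180 min libraries.

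Leaving out replicates gave 5641 to 7717 genes for METTL3 loss, 1686 to 6224 for ZCCHC8 loss, 3158 to 6785 for the difference, 255 to 892 raised by both, 262 to 1311 lowered by both, 188 to 1245 opposite, 572 to 1564 ZCCHC8-specific and 2130 to 3369 METTL3-specific. The ZCCHC8 count of 6224 came without METTL3 replicate 1, and fitted alone the ZCCHC8 line gave 6145, so the METTL3 libraries widen the shared spread. Of 191 called values of 84 named genes, 39 (in 31 genes) lost the call in some such fit. They include the METTL3 values of Xist, Dancr, Snhg20, Etv4, Jun, Mdm2 and Gm26945 and the ZCCHC8 values of Eras, Meg3, Bambi, Rbm15, Id2, H19, Jun, Otx2, Mdm2, Fosl1, Dusp1, Exosc3, Ppp1r13l, Ccm2, Pde6d and Tmem250-ps. With voom and weights per line and arm, 6054 genes passed for ZCCHC8 loss. The 14 two-cell-like genes kept their call in the ZCCHC8 line in every fit except those of single chase times, where 11 to 14 did.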
